A study of Mus musculus with 18 samples.

Results

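Dermal T cells were taken from single-cell RNA sequencing of mouse dorsal dermis as the barcodes with 850 to 7800 detected genes, under 13% mitochondrial UMIs, a UMI of at least 2 of the 3 genes Cd3e, Cd3g and Cd3d, at most 2 UMIs of C1qa and none of Pdgfra. A UMI (unique molecular identifier) marks 1 captured transcript. By this rule 94 cells were T cells, of 16877 cells that passed the filter on genes and mitochondrial UMIs and of 23990 deposited barcodes. The cells came from wild-type male C57BL/6J mice, adult and in telogen (the resting phase of the hair cycle), kept under 12 hours of light and 12 hours of dark. No mouse carried a transgene or received a treatment. Groups were 6 zeitgeber times (ZT, hours from lights on): ZT2, ZT6, ZT10, ZT14, ZT18 and ZT22. Each had 3 libraries, 1 mouse each, collected on 3 successive days, so that the replicate number is also the day. The skin was digested with collagenase and live cells were sorted with a viability dye, with no selection for immune cells. The depth of a library ranged from 4850221 to 40827442 UMIs.

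T cells recognise antigen through a receptor made of an alpha and a beta chain, or of a gamma and a delta chain, held at the cell surface by the Cd3 chains that pass the signal on. In skin they include helper cells that carry Cd4, cytotoxic cells that carry Cd8, regulatory cells that depend on the transcription factor Foxp3, and gamma-delta cells. Like other cells they carry the circadian clock, a feedback loop in which Arntl and Clock drive the Per, Cry, Nr1d and Dbp genes, whose products act back on the loop or on its target genes.

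The 3 genes that chose the cells lie side by side on chromosome 9 in GRCm38, the build of the files. Cd3g (ENSMUSG00000002033) spans 44969572 to 44980431 on the minus strand, Cd3d (ENSMUSG00000032094) 44981786 to 44987339 on the plus strand and Cd3e (ENSMUSG00000032093) 44998740 to 45009627 on the minus strand. Their promoters are shown because they define the population, as windows of 300 bases (250 before and 50 after the start, from RefSeq on GRCm38.p6), at chr9:44981536-44981835 (Cd3d, plus strand), chr9:45009562-45009861 (Cd3e, minus strand) and chr9:44980382-44980681 (Cd3g, minus strand), each written 5′ to 3′ on its gene's strand. Capitals mark letters that matched AGGAAG or its reverse complement (the core that ETS factors read), AGATAA or its reverse complement (read by GATA factors), or CAGCTG (an E-box read by E-proteins). Both strands were searched and no matches overlapped.
Cd3d: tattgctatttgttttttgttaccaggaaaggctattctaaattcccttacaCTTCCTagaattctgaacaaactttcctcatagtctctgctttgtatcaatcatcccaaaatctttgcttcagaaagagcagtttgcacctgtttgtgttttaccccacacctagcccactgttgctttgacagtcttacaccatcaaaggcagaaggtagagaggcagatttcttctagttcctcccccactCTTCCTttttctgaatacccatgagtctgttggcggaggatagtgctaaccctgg
Cd3e: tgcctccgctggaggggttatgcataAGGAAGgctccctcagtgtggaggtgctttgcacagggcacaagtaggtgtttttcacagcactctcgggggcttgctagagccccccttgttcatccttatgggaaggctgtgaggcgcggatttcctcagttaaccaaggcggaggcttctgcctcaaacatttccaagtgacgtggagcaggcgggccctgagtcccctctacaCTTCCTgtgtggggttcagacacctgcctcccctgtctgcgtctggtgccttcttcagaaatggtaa
Cd3g: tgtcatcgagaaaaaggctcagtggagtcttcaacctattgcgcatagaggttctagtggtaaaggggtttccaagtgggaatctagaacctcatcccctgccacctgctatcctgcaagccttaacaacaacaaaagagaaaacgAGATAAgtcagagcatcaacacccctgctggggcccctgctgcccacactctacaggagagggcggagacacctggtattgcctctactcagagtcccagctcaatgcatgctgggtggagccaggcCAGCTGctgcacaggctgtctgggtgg
AGGAAG had 2 matches in the window of Cd3d, 2 in that of Cd3e and 0 in that of Cd3g, while 35.4% of 32851 promoter windows of this length held at least 1. The window of Cd3g held 1 match to AGATAA, found in 11.2% of all windows, and 1 to CAGCTG, found in 16.3%. CACGTG, the E-box that Arntl and Clock read, was found in 7.15% of all windows and in none of these 3. A match of letters is a description of the sequence and not a binding site.

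The T cells held a median of 6968 UMIs (1644 to 66266) and 2046 genes (853 to 7047), and their mitochondrial share had a median of 3.27%. All 3 Cd3 genes were detected in 79 cells and exactly 2 in 15, and the 3 genes summed to a median of 11 UMIs per cell (2 to 45). Ptprc, the pan-leukocyte phosphatase CD45, had a UMI in 92 of 94. The other Ptprc-positive cells, 3097 cells with a Ptprc UMI and no Cd3 UMI, had a median of 12232 UMIs. As further references, 100 cells with no Cd3 UMI and at least 2 of the natural killer (NK) genes Ncr1, Klrb1c, Klre1 and Klrd1 (median 7905.5 UMIs) and 12133 cells with Pdgfra and no Ptprc, a fibroblast gate (median 22132 UMIs), were used. No T cell barcode was found in another library, although 330 of all deposited barcodes were.

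Just outside the rule stood 47 cells with exactly 1 Cd3 gene, which was Cd3g in 32 of them. Trac was found in 7 of these 47 cells, against 7 of the 15 T cells with exactly 2 Cd3 genes and 67 of the 79 with all 3. Il1rl1, the receptor for interleukin 33 that group 2 innate lymphoid cells and some T cells carry, was found in 24 of the 47, in 8 of the 15 and in 23 of the 79. Another 10 cells with at least 2 Cd3 genes were left out by Pdgfra (8 cells) or C1qa (2 cells).

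The label was checked against markers of other cells. The 11 listed T cell markers, 3 of which belong to the rule, were all detected and summed to 51.0 UMIs per 10000 (3874 UMIs), against 0.729 in other Ptprc-positive cells and 10.4 in NK-gated cells. Cd3 genes are at 0 in those classes by their gates, and without them the 8 other markers were at 34.04 per 10000 in T cells (2586 UMIs) and at the same 0.729 and 10.4 in the other classes. The 8 macrophage markers summed to 0.342 per 10000 in T cells, in which Lyz2 was the most abundant and Cd68 was at 0, and to 187.6 in other Ptprc-positive cells. The 6 fibroblast markers summed to 3.65 against 71.3, led by Col3a1. The rule itself set Pdgfra to 0 and limited C1qa, and without these genes the sums were 3.65 against 71.1 for fibroblasts and 0.303 against 153.4 for macrophages. The other Ptprc-positive cells had no limit on Pdgfra or C1qa, so that this class need not hold immune cells only. The 8 NK markers summed to 7.24, led by Nkg7, which cytotoxic T cells also express, against 81.1 in NK-gated cells. Ncr1, Klrb1c, Klre1 and Klrd1 of this list chose the NK-gated cells, so that the sum is high there by the gate. Ncr1 was found in 3 T cells. By library the sum of NK markers in T cells was highest in ZT14 replicate 1, at 105 per 10000 in 2 T cells, above the 22.1 of the T cell markers there. It was 16.3 or lower in each of the others. The 7 markers of group 2 innate lymphoid cells summed to 5.61 against 0.969, led by Il1rl1. By library this sum was highest in ZT22 replicate 1, at 34.5 per 10000 in 2 T cells, above the 29.7 of the T cell markers there, and it was 16.3 or lower in each of the others. Their part in the values of Gata3 and Il1rl1 below was not tested. B cell markers summed to 1.24 (led by Ighm) against 3.33, and dendritic cell markers to 1.17 (led by Ccr7, which T cells also express) against 45.2. Cd79a of B cells, Flt3 and Xcr1 of dendritic cells, Mcpt4 and Tpsb2 of mast cells, S100a8, Csf3r, Retnlg and Ly6g of neutrophils, Krt5, Krt14 and Krt1 of keratinocytes and Cdh5 and Fabp4 of endothelium were at 0 in all 94 cells. The third endothelial marker, Pecam1, which some leukocytes also express, had 29 UMIs in 22 T cells and was higher there than in other Ptprc-positive cells, at 0.382 per 10000 against 0.0356. The mast cell markers summed to 11 UMIs (0.145 per 10000 against 5.55), led by Kit with 6 UMIs in 3 cells, and Cpa3 had 4 in 1 cell. Collagens, Lyz2 and C1q together took at most 0.329% of the UMIs of any T cell.

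A pair of cells stood apart. The T cell with the most UMIs (66266, in ZT10 replicate 2) gave 53.3% of that library's T cell UMIs and 8.72% of all. It held 9 UMIs of Foxp3, 31 of the 77 UMIs of the proliferation gene Mki67 and 39 of the 77 of Top2a, the topoisomerase of dividing cells. A cell of ZT18 replicate 2 (19048 UMIs) had 57.6% haemoglobin UMIs, where the next highest cell had 0.460%, and gave 96.9% of all haemoglobin UMIs in T cells. Some levels below are also given without one of these cells.

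Genes of the alpha-beta receptor were found in most T cells. Trac (ENSMUSG00000076928, chromosome 14, 54220521 to 54224206), the constant region of the alpha chain, had a UMI in 74 of 94 cells (78.7%, against 0.198% of fibroblast-gated cells) and was at 5.48 UMIs per 10000 (95% Poisson interval 4.96 to 6.03), against 0.00166 in other Ptprc-positive cells. Trbc2 (ENSMUSG00000076498, chromosome 6, 41546730 to 41548352), a constant region of the beta chain, was found in 83 cells (88.3%, against 0.0412% of fibroblast-gated cells) at 8.48 (7.83 to 9.16), against 0.0629. Of the 94 cells, 88 had a UMI of Trbc1 or Trbc2, which are near-identical, so that reads can be shared or lost between them. Trbc1 was also found in NK-gated cells, at 3.25 per 10000 against 5.16 in T cells.

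Trdc (ENSMUSG00000104876, chromosome 14, 54142851 to 54148868), the constant region of the delta chain, was found in 7 cells of 5 libraries (7.45%, 95% exact binomial interval 3.05 to 14.7, against 0.181% of fibroblast-gated cells). These held 30, 24, 8, 4, 4, 2 and 1 UMIs of Trdc, so that 2 cells gave most of the level of 0.961 per 10000. No cell had both Trac and Trdc, with 74 cells of the one and 7 of the other, and 13 cells had neither, of which 12 had a beta chain UMI. Of the 7 Trdc cells, 5 had Tcrg-C1 and 6 had Tcrg-C2, constant regions of the gamma chain that are near-identical to each other, while Cd5 and Cd6, co-receptors of most alpha-beta T cells, were at 0 in all 7. Tcrg-C1 was also found in 8 cells without Trdc, 5 of them with Trac. Of the NK markers, Klrd1 and Nkg7 were each found in 3 of the 7 Trdc cells. Ncr1 was found in 2 of them with 11 UMIs, Klre1 in 2 and Klrb1c in 1, while Klra8 and Gzma were at 0 in all 7. Of 4 genes listed for epidermal gamma-delta T cells, Tcrg-V5, a gamma chain segment, and Krt14 were at 0 in all 94 cells. Trdv4, the delta chain segment of these cells, had 15 UMIs in 5 T cells, 3 of them in the Trdc group. Fcer1g, a signalling chain that myeloid and NK cells also express, had 66 UMIs in 7 T cells, 3 of them in the Trdc group with 29 UMIs. The list summed to 1.07 per 10000 in T cells and to 15.2 in other Ptprc-positive cells, most of it Fcer1g.

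Gata3, the transcription factor of type 2 lymphocytes that is also needed for T cell development, and Cxcr6, a chemokine receptor of tissue-resident lymphocytes, were found in most T cells and in few of the other Ptprc-positive cells. Of the 47 cells with exactly 1 Cd3 gene, 30 had Gata3 and 21 had Cxcr6. Gata3 (ENSMUSG00000015619, chromosome 2, 9857078 to 9890034) had a UMI in 57 of 94 T cells (60.6%), in 2.74% of other Ptprc-positive cells and in 2.83% of fibroblast-gated cells. After each cell was thinned to 2500 UMIs, which kept 91 T cells, 3027 other Ptprc-positive and 12100 fibroblast-gated cells, the shares were 35.2%, 1.82% and 0.446%. Its level was 4.34 per 10000 (3.89 to 4.84), against 0.0938 in other Ptprc-positive and 0.669 in NK-gated cells. Cxcr6 (ENSMUSG00000048521, chromosome 9, 123806475 to 123811760) had a UMI in 50 T cells (53.2%), in 1.52% of other Ptprc-positive and in 0.0742% of fibroblast-gated cells, and its level was 3.42 per 10000 against 0.0444.

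Il18r1 (ENSMUSG00000026070, chromosome 1, 40465552 to 40500854), a chain of the receptor for interleukin 18, was also found outside T cells. It had a UMI in 40 T cells (42.6%, 23.1% after thinning), in 5.13% of other Ptprc-positive cells (2.05% after thinning) and in 24.6% of fibroblast-gated cells (6.53% after thinning). In T cells it was at 1.54 per 10000 (1.27 to 1.85) and in NK-gated cells at 1.81. Il18rap, the second chain of the receptor, was found in 33 T cells, 19 of which also had Il18r1.

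The 94 cells were sorted into groups by single genes, in the order Foxp3, Trdc, Cd8a or Cd8b1, and Cd4, a grouping chosen after their values were seen and with no test. Foxp3 was found in 20 cells, Trdc in 7, Cd8a or Cd8b1 in 16 of the rest, Cd4 in 28 of the rest, and 23 cells had none of these. Cd4 overlapped with the others, since 40 cells had it in all, 12 of them with Foxp3. The heatmap of single cells shows the groups beside each other. A gene without a UMI can still be expressed, and the 23 cells with no assigning gene held a median of 7142 UMIs, close to the 6588.5 of the Cd4 group.

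**Figure D1:**
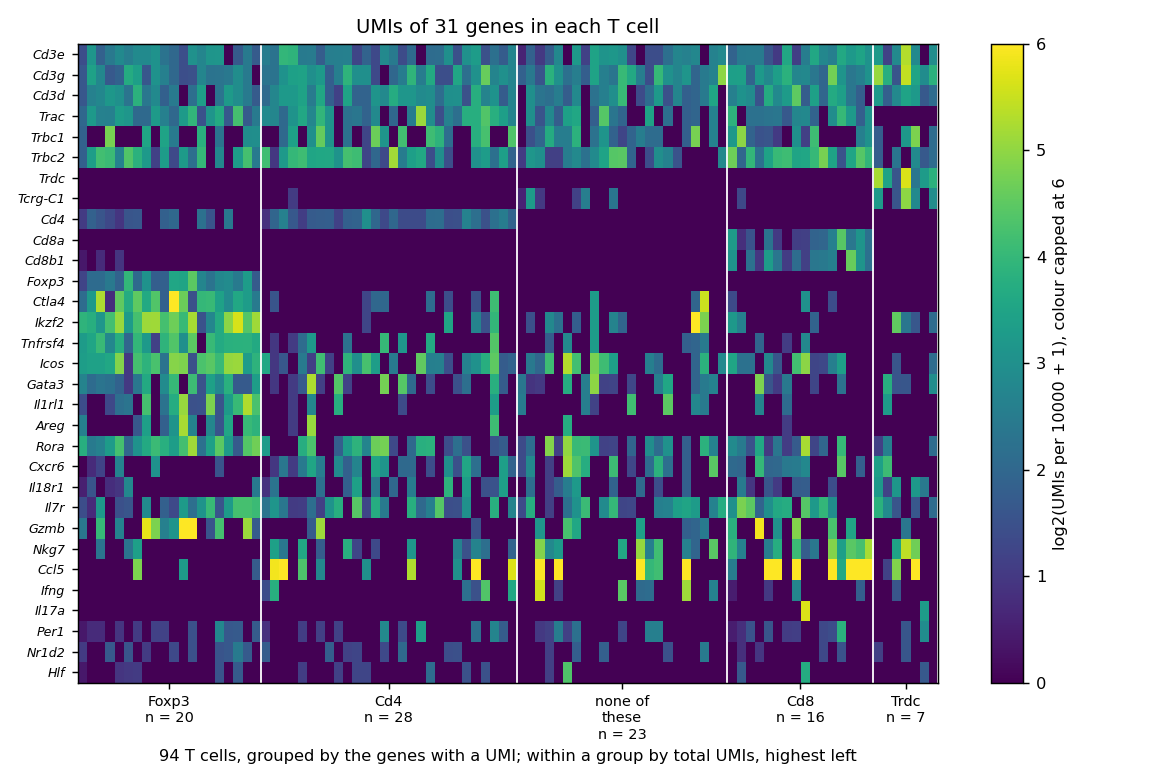
UMIs of 31 genes (rows) in each of the 94 T cells (columns), as log2(UMIs per 10000 + 1) with the colour capped at 6, grouped by the genes with a UMI and sorted by total UMIs within a group. Ctla4 and Ikzf2 fill all 20 cells of the Foxp3 group, Trac is empty in all 7 cells of the Trdc group, and Gzmb and Ccl5 are high in a subset of cells.

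The Foxp3 group was described by 9 genes of regulatory T cells, Foxp3 among them. Ctla4, an inhibitory receptor of regulatory T cells, was found in 20 of 20 Foxp3 cells and in 14 of the other 74 T cells. Ikzf2, the transcription factor Helios, and Icos, a costimulatory receptor, were also found in all 20. The receptors Tnfrsf4 and Tnfrsf18 were each found in 19, Il2ra in 17, Tnfrsf9 in 15 and Tigit in 5. Gata3 was found in 18 of 20 (39 of the other 74), Il1rl1 in 16 (15 of 74), and Areg, the growth factor amphiregulin, in 12. Itgae, the integrin chain that binds epithelial cadherin, was found in 15. Cxcr6 was found in 5 of the 20 Foxp3 cells and in 45 of the other 74, Il18r1 in 6 and in 34, and Tcf7, a factor of less differentiated T cells, in none of the 20. Gzmb, the protease granzyme B, was found in 13 Foxp3 cells and was at 14.9 per 10000 in the group, against 10.0 in the Cd8 group. A single Foxp3 cell of ZT2 replicate 2 held 123 of its 325 UMIs there, and a cell of ZT2 replicate 1 held 63 of the 144 in the Cd8 group. Without the top cell of each the levels were 9.50 and 6.11.

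In the Cd8 group the chemokine Ccl5 was at 58.3 per 10000, from 9 of 16 cells, against 1.47 to 20.6 in the other groups. Nkg7, a granule protein, was found in 12 of the 16 cells and was at 8.93, against 9.62 in the Trdc group. This order turned without the top cell of each, at 7.81 and 5.06, since 1 Trdc cell held 20 of 37 UMIs. Of the genes of killing, Gzmb was found in 6 of the 16, and Gzma and Prf1, a granzyme and the pore-forming perforin, in 5 each. Lef1, a factor of naive and memory T cells, was found in 8 of them. In the Cd4 group, Cd40lg, the helper ligand for B and dendritic cells, was found in 21 of 28 cells, against 1 of 20 Foxp3 cells. The Trdc group had Il18r1 in 5 of 7 cells. Cd3g, a gene of the rule, was at 18.5 per 10000 in it, against 4.35 to 8.09 in the other groups, but 2 cells gave 48 of its 71 UMIs, and without them the level was 9.09. Il17a, the cytokine of type 17 cells, was found in 2 cells: a Cd8 cell of ZT6 replicate 2, with 42 of its 46 UMIs, and a Trdc cell of ZT10 replicate 2, with 4.

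Nearly every cell with Il1rl1 also had Gata3. Of the 31 T cells with Il1rl1, 30 had Gata3, and of the 17 with Areg, 16 had it, while Gata3 was found in 57 of 94. The type 2 cytokines Il4, Il5 and Il13 were each found in 2 T cells, with 4, 6 and 4 UMIs. Il18r1 was found in 7 of the 31 cells with Il1rl1 and in 33 of the 63 without. These counts describe cells pooled from 17 mice, and cells of 1 mouse are not replicates.

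The level of each gene was then compared between T cells and other Ptprc-positive cells of the same mouse. Only the 6 libraries with at least 5 T cells were used (ZT2 replicates 1 and 3, ZT10 replicates 1 and 2, ZT14 replicate 3 and ZT22 replicate 2), which held 65 of the 94 cells. Since the cells were chosen by genes of this contrast, the differences are a description with no test. They are given as log2(UMIs per 10000 + 0.1), a scale that understates the difference of a gene near 0. Of 2563 genes with at least 30 UMIs in the T cells of these libraries, 766 were higher in T cells in 6 of 6 libraries (29.9%) and 202 were lower in 6 of 6 (7.88%), with a median of 0.44. That minimum favours genes that are higher in T cells. Of all 18353 genes with a UMI in either class, 5.35% were higher in 6 of 6 libraries and 19.6% lower, with a median of -0.05.

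In T cells Trac was at 3.43, 7.33, 5.55, 5.55, 5.38 and 4.08 UMIs per 10000 in these libraries, in the order above, and in other Ptprc-positive cells at no more than 0.0103. Gata3 was at 9.04, 4.91, 6.21, 3.94, 3.59 and 3.54 in T cells and at 0.0505, 0.0780, 0.0303, 0.0171, 0.131 and 0.108 in the others. The lowest T cell value of either gene stood far above the highest value of the other cells. Cxcr6 was at 4.69, 5.13, 9.15, 0.805, 3.35 and 2.18 in T cells, and Il18r1 at 1.14, 2.27, 2.94, 0.885, 1.79 and 0.680, against at most 0.0537 and 0.150 in the others. Cxcr6 was lowest and Il18r1 second lowest in ZT10 replicate 2, the library in which 1 Foxp3 cell held most of the UMIs. Without that cell the levels of ZT10 replicate 2 were 8.45 for Trac, 2.24 for Gata3, 1.72 for Cxcr6 and 1.38 for Il18r1. Trdc was at 0, 0, 8.50, 0.322, 1.08 and 0, so that the groups overlapped. With few cells per library single cells weighed heavily: for 13 genes described by library, 40 of 70 levels above 0 moved by over 1.5 times without the cell that held the most UMIs of the gene, as did 38 of 71 levels pooled per zeitgeber time. In ZT10 replicate 1, 1 cell held all 28 UMIs of Cxcr6 and 26 of the 28 of Rora.

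Outside the rule, genes with at least 100 UMIs over all 94 T cells were ranked by their median difference in the 6 libraries. The largest differences were led by Icos (6.01 ± 0.63, SD over 6 libraries), Trac (5.73 ± 0.38), Ctla4 (5.67 ± 0.68), Trbc2 (5.47 ± 0.45), Tnfrsf4 (5.35 ± 0.45) and Ikzf2 (5.17 ± 0.85). Gata3 (4.96 ± 0.77) and Cxcr6 (4.82 ± 1.15) followed, then Ets1, a T cell transcription factor, Gzmb, the nuclear receptor Rora, Cd5, Tnfrsf18, Cd6, Bcl11b, the factor that fixes T cell identity, the adaptor Lat, Trat1, Trbc1 and Il2ra, the alpha chain of the interleukin 2 receptor, down to 4.18. All of these but Cd6 (5 of 6) were higher in 6 of 6 libraries. Il18r1 differed by 3.03 ± 0.98 (6 of 6) and Trdc by 0.74 ± 2.72 (3 of 6). Without the largest cell and the haemoglobin cell Gata3 differed by 4.57 and Trdc by 1.19. Among the same genes, those lower in T cells were led by Cst3 (-4.89 ± 0.20), a protease inhibitor of myeloid cells, Psap (-3.78), the chemokine Ccl4 (-3.64) and Jun (-3.00). In the T cells of the 6 libraries these had 69, 78, 70 and 146 UMIs.

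**Figure D2:**
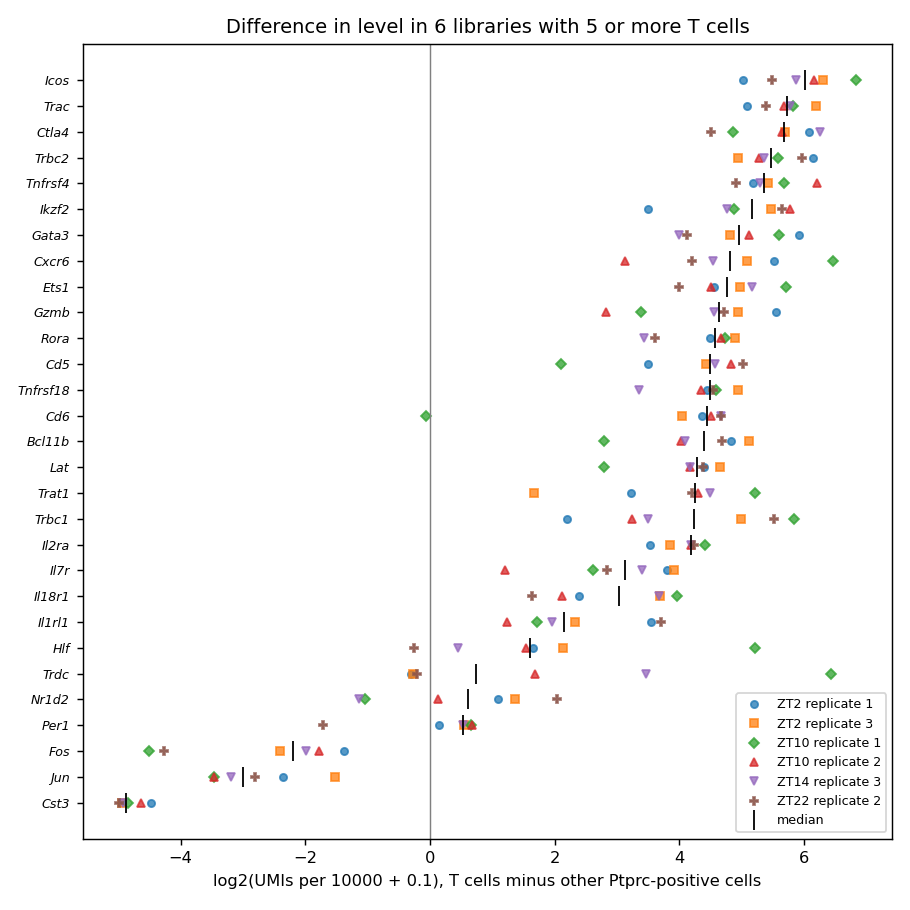
Difference in level between T cells and other Ptprc-positive cells of the same library, as log2(UMIs per 10000 + 0.1), for 29 genes; each symbol is 1 of 6 libraries and the bar is their median. Icos, Trac and Ctla4 have medians of 5.67 to 6.01 and lie above 0 in all 6 libraries, Trdc runs from -0.30 to 6.43, and Cst3 has a median of -4.89.

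Grouped by function, all members of a list with a UMI in either class were counted, whatever their T cell level. Of 15 genes of receptor signalling 13 were higher in 6 of 6 libraries, with a median difference of 3.82. Lck, the kinase that starts the signal, differed by 3.82, Cd28, the main costimulatory receptor, by 4.12 and Zap70, the kinase that binds the Cd3 chains, by 2.64. Of 9 regulatory genes 7 were higher (median 4.49), and of 7 receptors of the common gamma cytokine family 5 were (2.58), among them Il7r (3.12) for interleukin 7, Il2rb (2.88) and Il2rg (2.32). Of 9 type 2 genes 3 were higher (median 1.69), which were Gata3, Il1rl1 (2.15) and Areg (2.80), while the cytokines Il4 (-0.75), Il13 (-0.67) and Il5 (0.00) were higher in T cells in 2 of 6 libraries each. Residency genes (4 of 8 higher, median 1.48) and circulation genes (4 of 9 higher and 1 lower, 1.59) were mixed in kind, since Cd69 and Itgae of resident cells differed by 2.19 and 3.25 and S1pr1 and Tcf7 of circulating cells by 1.59 and 3.02. Of 11 type 1 and cytotoxic genes 3 were higher and 1 lower (median 1.58), with Gzmb (4.63), Ccl5 (2.98) and Nkg7 (2.30) the higher ones, and Prf1 at -0.40. Of 13 type 17 genes 0 were higher and 3 lower (median 0.00), among the latter Maf (-1.31) and Tmem176b (-3.04), which myeloid cells express. A gene with no UMI in T cells is counted as lower wherever the other cells have it in all 6 libraries, which the depth of the T cells alone can give.

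Immediate early genes, which respond within minutes to stimulation and to tissue dissociation, were lower or without a common direction. Of 12 listed, 7 were lower in T cells in 6 of 6 libraries and 0 were higher (median -1.25), among them Fos (-2.20), Atf3 (-3.38) and Jun, while Ier2 differed by 0.30 and Nr4a1 by 0.55. Of 8 heat shock and cold-inducible genes, Hspa1a (-1.26) and Hspa1b (-1.54) were lower and the cold-inducible Cirbp (0.88) and Rbm3 (0.84) higher. Of 12 genes that respond to glucocorticoids 2 were higher, one of them the receptor Nr3c1 (1.53), and 4 lower, one of them Dusp1 (-1.81). Of 19 clock genes 2 were higher in all 6 libraries, Rora (4.58) and Cry1 (0.72, from 18 UMIs). Another 1 was lower, Bhlhe41, which had no UMI in T cells, and the median of the list was 0.00.

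The share of T cells among the cells with Ptprc or in the T cell gate was 94 of 3259 (2.88%, exact binomial interval 2.34 to 3.52). By library, in the order of replicates 1, 2 and 3, it was 7.55%, 1.53% and 4.31% at ZT2 (12, 3 and 19 cells), 2.52%, 6.25% and 0.719% at ZT6 (4, 4 and 1 cells) and 2.60%, 3.73% and 2.33% at ZT10 (5, 9 and 2 cells). At ZT14 it was 0.758%, 1.65% and 3.64% (2, 3 and 10 cells), at ZT18 0%, 3.70% and 1.30% (0, 3 and 2 cells) and at ZT22 0.699%, 4.76% and 2.94% (2, 10 and 3 cells). The exact binomial interval of the 0 of 28 cells in ZT18 replicate 1 reaches 12.3%. The mean was 2.83% ± 2.02 (SD, n = 18). Libraries of 1 zeitgeber time differed as much as those of different times, and the times overlapped.

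A 24 h cosine through the 18 shares had an amplitude of 1.15 percentage points and a peak at ZT3.57, and did not pass a permutation test of the zeitgeber times (100000 draws, one-sided in the fit statistic, p = 0.246). Permuted within the day of collection, p was 0.269. As a share of all cells that passed the filter, p was 0.140. With 1 library left out p ranged from 0.0988 to 0.49. Numbers of cells in a digest depend on which cells were released and survived, so that a change in number and a change in capture cannot be told apart.

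**Figure D3:**
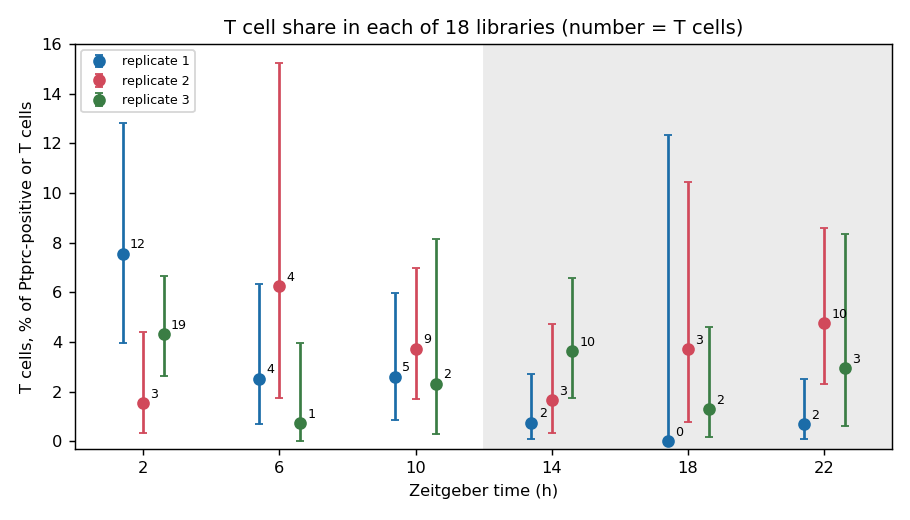
T cells as percent of Ptprc-positive or T cells in each of 18 libraries against zeitgeber time in hours, with exact 95% binomial intervals, coloured by replicate, with the number of T cells beside each point and the dark phase shaded. The shares run from 0 to 7.55% and libraries of the same time differ as much as the times do.

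Pooled per zeitgeber time there were 34, 9, 16, 15, 5 and 15 T cells from ZT2 to ZT22, and the groups of T cells differed in number between them. At ZT6, 6 of 9 cells were in the Cd8 group and none had Foxp3. Foxp3 cells were 8 of 34 at ZT2, 4 of 16 at ZT10, 3 of 15 at ZT14 and 5 of 15 at ZT22, from 9 libraries, and the 4 of ZT10 all came from ZT10 replicate 2. Trdc cells were 3 of 16 at ZT10, 2 of 15 at ZT14 and 1 each at ZT6 and ZT18, and 0 of 34 at ZT2, where an exact binomial interval reaches 10.3%. With so few cells per library the differences in kind between times were not tested.

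Levels pooled in this way differed between times. Gata3 was at 6.53 UMIs per 10000 at ZT2, 0.0988 at ZT6 (1 UMI in 9 cells), 4.13 at ZT10, 3.15 at ZT14, 8.70 at ZT18 and 3.41 at ZT22. Its UMI at ZT6 lay in 1 of the 6 Cd8 cells, and 5 of the 10 Cd8 cells of other times had Gata3. Trac was at 6.07, 6.62, 5.74, 5.75, 0.767 and 4.07 per 10000 over the 6 times, and the low value of ZT18 comes from 5 cells with 3 UMIs. At ZT6 a single cell held 35 of the 67 UMIs of Trac, and without it the level was 4.23. Without the haemoglobin cell ZT18 was at 1.50 for Trac and 12.97 for Gata3. A single cell of ZT18 replicate 3 held 24 of the 34 UMIs of Gata3 at that time, and without it the level was 3.21. The part of the changing groups of cells in these levels was not tested.

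Clock genes had few UMIs in T cells. Over all 94 cells there were 24 UMIs of Arntl, 19 of Clock, 2 of Npas2, 74 of Per1, 3 of Per2, 6 of Per3, 24 of Cry1, 6 of Cry2, 15 of Nr1d1, 45 of Nr1d2, 571 of Rora, 13 of Dbp, 5 of Tef, 46 of Hlf, 59 of Nfil3, 7 of Ciart, 194 of Bhlhe40 and 0 of Bhlhe41. Some of these levels differed from those of other Ptprc-positive cells. Rora (ENSMUSG00000032238, chromosome 9, 68653786 to 69388246), an activator of Arntl that also acts in type 2 and regulatory lymphocytes, was at 7.52 per 10000 against 0.289. Hlf (ENSMUSG00000003949, chromosome 11, 90336536 to 90390895), a PAR bZIP factor related to Dbp, was at 0.605 (0.443 to 0.808) against 0.0368. It was found in 18 T cells, and in 13 of them as 1 UMI, while a cell of ZT10 replicate 1 held 16 of its 46 UMIs and a cell of ZT6 replicate 2 held 10. Bhlhe40, a repressor of Arntl and Clock activity that T cells also use in cytokine control, was at 2.55 against 0.750.

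In the 6 libraries with at least 5 T cells, Per1 (ENSMUSG00000020893, chromosome 11, 69095217 to 69109960), a repressor of the clock that also responds to glucocorticoids, was at 0.801 and 0.880 per 10000 at ZT2, 1.63 and 1.69 at ZT10, 0.837 at ZT14 and 0.136 at ZT22. In the other Ptprc-positive cells of these mice it was at 0.717, 0.575, 1.01, 1.02, 0.551 and 0.674. Both ZT10 libraries were the highest in each class of cell, and the T cells of ZT22 replicate 2 were low, with 1 UMI. The largest cell held 2 of the 21 UMIs of Per1 in ZT10 replicate 2, and without it that library was at 3.27, so that the close values of the ZT10 libraries rest on that cell. In ZT10 replicate 1, 3 of the 5 UMIs came from 1 cell. The fitted cosine of Per1 in T cells had an amplitude of 0.887 ± 0.0725 per 10000 and a peak at ZT8.04 ± 0.241 h (jackknife SE over 6 libraries). Without the 2 cells that stood apart it was 1.39 ± 0.753, in cells with all 3 Cd3 genes 0.497 ± 0.233, in all 17 libraries 0.516 ± 0.288 with a peak at ZT11.2 ± 5.44, and pooled per zeitgeber time 0.661 ± 0.317 with a peak at ZT9.88 ± 2.71. Pooled over all cells of a time, Per1 was at 0.963, 0.593, 1.62, 1.48, 0 and 0.189 from ZT2 to ZT22, and the 0 of ZT18 came from 5 cells, with an exact Poisson interval that reaches 0.943. At ZT14, 9 of its 16 UMIs came from the 3 cells of replicate 2, which were not among the 6 libraries.

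Nr1d2 (ENSMUSG00000021775, chromosome 14, 18204054 to 18239127), the nuclear receptor REV-ERB beta that represses Arntl, was at 0.572 and 0.733 per 10000 at ZT2, 0.327 and 0.724 at ZT10, 0.120 at ZT14 and 0.816 at ZT22 in T cells. In the other Ptprc-positive cells it was at 0.216 and 0.225, 0.776 and 0.651, 0.385 and 0.123. The order differed, with the lowest value of the others, at ZT22, beside the highest of the T cells, which rests on 6 UMIs. A single cell held 3 of these, and without it ZT22 replicate 2 was at 0.501, below both ZT2 values. Without the largest cell Nr1d2 in ZT10 replicate 2 was at 0.345, from 2 UMIs. Rora was at 7.09 and 11.1 at ZT2, 9.15 and 8.77 at ZT10, 3.59 at ZT14 and 5.17 at ZT22 in T cells, higher in all 4 libraries of the light phase than in both of the dark phase. This order rests on single cells, without which ZT10 replicate 1 was at 0.894 and ZT10 replicate 2 at 4.48. Bhlhe40 was at 4.81 and 5.57 at ZT2, 2.29 and 1.45 at ZT10, 1.20 at ZT14 and 0.680 at ZT22. Its ZT2 libraries were both above all the others, but 1 cell held 25 of the 42 UMIs of ZT2 replicate 1, which was at 2.10 without it, below ZT10 replicate 1. Dbp, a direct target of the clock, had 10 UMIs in the T cells of these libraries and was at 0.343 and 0.0733 at ZT2, 0.654 and 0 at ZT10, 0.120 at ZT14 and 0.408 at ZT22. In the other cells it was at 0.0689 and 0.102, 1.02 and 1.19, 0.452 and 0.0655, so that the T cells were higher in 2 of 6 libraries.

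**Figure D4:**
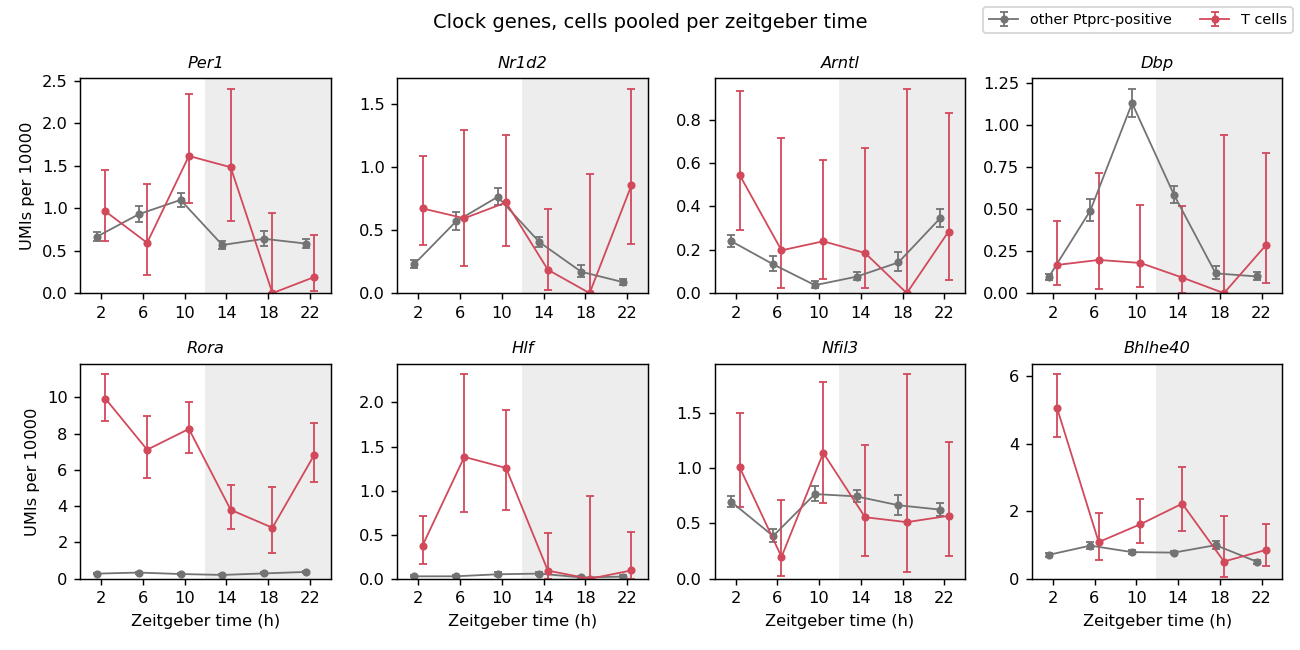
Level of 8 clock genes in UMIs per 10000 with exact 95% Poisson intervals, cells pooled per zeitgeber time in hours, in T cells (red) and other Ptprc-positive cells (grey), with the dark phase shaded. In other Ptprc-positive cells Dbp peaks at ZT10 at 1.13, where T cells are at 0.179 (3 UMIs; 0.297 without the largest cell), and T cells are above the others in Rora at every time.

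A 24 h rhythm was tested across the 6 libraries on UMIs summed over the T cells of each mouse, with zeitgeber time a measure the choice of cells did not use. These libraries hold ZT2, ZT10, ZT14 and ZT22 only. Of 3384 genes, 1 passed the quasi-likelihood test of edgeR after Benjamini-Hochberg adjustment (0.0296%), and 170 had an unadjusted p under 0.05. With DESeq2 1 gene passed, the same. It was Top2a (log2 amplitude 5.11, peak at ZT9.92, adjusted p = 0.0493), which was at 0 and 0 per 10000 at ZT2, 1.31 and 4.75 at ZT10, 0.479 at ZT14 and 0 at ZT22. Its 59 UMIs in ZT10 replicate 2 came mostly from 2 Foxp3 cells with 39 and 19 UMIs that also held Mki67. Over all libraries, 63 of the 77 UMIs of Top2a lay at ZT10. Without these it was under the minimum of 30 UMIs for a tested gene. Top2a thus entered the test through the time at which it was high, so that the call cannot decide whether it is rhythmic. Without the largest cell and the haemoglobin cell 0 genes passed with edgeR, and 188 had an unadjusted p under 0.05.

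Next in order came Tent5a (adjusted p = 0.129 with edgeR), the cytokine Ifng (0.143), the histone genes Hist1h2ap (0.143) and Hist1h2ae (0.222), Mki67 (0.222), the chemokine Xcl1 (0.222), and Junb, Smc2 and Tmsb4x (0.295 each). Ifng was at 1.72 and 0.513 per 10000 at ZT2, 0 and 0.402 at ZT10, 1.79 at ZT14 and 6.67 at ZT22. At ZT22 a single cell held 48 of its 49 UMIs, and without it the level was 0.158. Of the 64 UMIs of Xcl1 in these libraries, 43 lay in 1 cell of ZT10 replicate 2. None of the 6 clock genes with enough UMIs passed. Unadjusted p and adjusted p in the edgeR fit were 0.00517 and 0.625 for Bhlhe40 (log2 amplitude 1.69, and in 17 libraries 0.35 with an unadjusted p of 0.614), 0.00716 and 0.687 for Hlf, 0.0251 and 0.858 for Per1 (0.249 unadjusted in cells with all 3 Cd3 genes and 0.560 with at least 1), 0.0346 and 0.916 for Rora, 0.0894 and 0.958 for Nfil3 and 0.511 and 0.958 for Nr1d2. Trbc2 (adjusted p = 0.809 with edgeR), Gata3 (0.958), Cxcr6 (0.980), Il18r1 (0.980) and Trac (0.988) did not pass.

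The number of genes called depended on the libraries and on the day. With the day of collection (the replicate number) as a block, which left 1 residual degree of freedom, 22 genes were called with edgeR, among them Ccl5, Gzma, Nkg7, Ifng, Xcl1 and Top2a. Without ZT10 replicate 1, 24 were called and without ZT10 replicate 2, 6 were called, among them Hlf, while leaving out each of the other 4 libraries left 0. In all 17 libraries with a T cell, an alternative chosen after seeing the data in which some libraries hold 1 cell, 15 genes were called (0.443%), 4 of them haemoglobin genes. Hlf was one of the 15 (log2 amplitude 2.67, peak at ZT7.70, adjusted p = 0.0423 with edgeR), and without the largest cell and the haemoglobin cell its adjusted p was 0.0466. Leaving out those cells took Hlf from 46 to 44 UMIs, so that this fit does not test the cells that carry it. Of the 46 UMIs 21 lay at ZT10, and of the 44 in the second fit 19 did. Without these Hlf was under the minimum of 30 UMIs in either fit. Hlf thus entered both tests through a time at which it was high, so that its calls cannot decide whether it is rhythmic. Without the largest cell and the haemoglobin cell 7 genes were called with edgeR in the 17 libraries. Beside Hlf these were Xcl1 (adjusted p = 4.91e-06), Hist1h2ap (4.26e-05), Hist1h2ae (0.000730), Top2a (0.00348, peak at ZT10.1), Ccl4 (0.00374) and Fcer1g (0.0116). Of the 38 UMIs of Top2a in this fit, 24 lay at ZT10, and without them it was under the minimum of 30 UMIs. Xcl1, Ccl4 and Fcer1g peaked at ZT13.0, ZT13.9 and ZT13.1. Of the 118 UMIs of Xcl1, a cell of ZT10 replicate 2 held 43, one of ZT14 replicate 2 held 34 and one of ZT14 replicate 1 held 20. In ZT14 replicate 1 the NK markers summed to 105 per 10000. The part of these cells in the calls was not tested. By library the level of Hlf was 0.229, 0 and 0.513 per 10000 at ZT2, 0.702, 2.19 and 0 at ZT6, 5.23, 0.402 and 0 at ZT10, 0, 0 and 0.120 at ZT14, 0 and 0 at ZT18 and 0, 0 and 0.510 at ZT22. Only 2 libraries were above 1, through a cell with 16 UMIs in the one and a cell with 10 in the other.

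In the other Ptprc-positive cells of the same 6 libraries 5 of 13118 genes passed the same edgeR test (0.0381%), and 3 of them were clock genes: Dbp (adjusted p = 0.00380, peak at ZT10.2), Nr1d2 (0.0321, ZT9.34) and Nr1d1 (0.0435, ZT8.91). In 17 libraries 8 passed (0.0610%), among them Arntl, Per3 and Tef. After these cells were thinned to the T cell total of each library, 4 to 6 genes passed in each of 5 draws, 4 of them haemoglobin genes and the rest collagens. No clock gene was among them. The thinned fits tested 3533 to 3598 genes, against 13118 without thinning, and a gene under the minimum of UMIs was not tested. Which clock genes stayed above that minimum is not reported here. The thinned fits therefore cannot decide whether clock genes would be called in the other cells at the UMI totals of the T cells. The thinning matched these totals only, not the number of cells or the weight of single cells.

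The difference in rhythm between T cells and other Ptprc-positive cells was tested as the interaction of cell class with the cosine terms, in a model that paired both classes of a library. Of 3384 genes 0 passed edgeR's test (0%), 150 had an unadjusted p under 0.05, and 3 passed with DESeq2 (Xcl1, Tent5a and Tiparp). Xcl1 had the smallest adjusted p with edgeR (0.0720), but a single T cell held 43 of its 46 T cell UMIs in ZT10 replicate 2. Nr1d2 had an unadjusted p of 0.0143 and an adjusted p of 0.976. The peak time of its cosine in T cells had a jackknife SE of 6.86 h, and its phase turned without ZT14 replicate 3. With the day as a further block within each class, 39 genes were called with edgeR, among them Xcl1, Top2a, Ccl5, Gzma and Areg. Without ZT10 replicate 1, 6 were called. In the first edgeR fit no difference was called for the clock genes with enough UMIs, and the other clock genes were not tested. The fit held few libraries and few T cell UMIs, and the part of either in this outcome was not tested.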

How the data were processed

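Dermal cells of 18 mice were measured with 10x Chromium Single Cell 3' v3 chemistry. The authors aligned the reads to mm10 with Cell Ranger 3.1.0 and deposited counts of UMIs per gene and barcode, not normalized. Counts sum to the depths given above, and intervals on a count or a share cover counting error only. The authors' filter (850 to 7800 genes, under 13% mitochondrial UMIs) was applied here. No doublet caller was run, and the limits on C1qa and Pdgfra and the check of collagens, Lyz2 and C1q stand in for one.

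The T cell rule, the gene lists and the tests were chosen with earlier results of these data known. UMIs were summed per library over T cells and over Ptprc-positive cells with no Cd3 UMI, and levels are UMIs per 10000. Differences use a pseudocount of 0.1, and lists were counted over all members with a UMI in either class. Rhythm was tested with edgeR 4.0.16 in R 4.3.3 (quasi-likelihood test of 24 h cosine and sine terms, TMM, Benjamini-Hochberg adjustment at 0.05) in libraries with at least 5 T cells, on genes with at least 30 UMIs and a UMI in 6 libraries over all libraries of the class, with DESeq2 1.42.0 as an alternative. The interaction was fitted with a term for each library. The scripts were tested on simulated data. Python 3.11.15 was used for all else.

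The mouse is the replicate. In the rhythm fits p-values measure the spread of libraries about the cosine, which holds differences between mice, misfit of the curve and counting error. In the fit of 6 libraries ZT14 and ZT22 each had a single mouse. The interaction pairs both classes of a library, so that its p-values measure the spread of their difference. The labels' collection hours tie replicate number to day. Libraries of the same number had a mean correlation of deviations of 0.0414 over 45 pairs (17 above 0.1), those of different numbers -0.0188 over 90 pairs, over 1140 genes. Named genes are those of the rule, the receptor, clock and pathway lists, the 10 of smallest adjusted p in each T cell test and the 20 of largest difference from other cells with at least 100 UMIs over all T cells. A few genes of these lists are not reported here. The grouping of T cells by single genes, the single cells left out, the counts over all list members and the use of 17 libraries were chosen after seeing the data. Positions are from GENCODE on GRCm38, promoters from RefSeq.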

Additional observations from a re-analysis of the deposited data

How the results depend on the processing

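The T cell share stayed on the same side of the threshold under all 25 alternatives run (p from 0.0988 without ZT6 replicate 3 to 0.646 without both libraries with the most T cells). The count of rhythmic genes in T cells, 1 in the fit reported first, was 18 for cells with all 3 Cd3 genes, 27 with at least 1, 0 from 500 genes per cell, 0 without the 2 cells that stood apart, 0 without TMM, 0 of 608 genes with filterByExpr, 52 with no filter, 22 with the replicate block, 0 with zeitgeber time as levels, 15 with all 17 libraries and 7 with both changes, and 0 to 24 with 1 library left out. In other Ptprc-positive cells the count of 5 became 24 with DESeq2, 4 with the replicate block and 8 with all libraries, and 1 to 10 with 1 library left out. For the difference in rhythm the 0 became 15 with at least 1 Cd3 gene, 3 with DESeq2, 1 without TMM, 33 with filterByExpr, 37 with no filter, 39 with the replicate block by cell class, 2 with all libraries and 1 with both changes, and 0 to 6 with 1 library left out. The causes were not tested. The phase of Nr1d2 turned without ZT14 replicate 3 (log2 amplitude 0.34, and 0.34 to 2.12 with 1 library left out), and that of Nfil3 with all libraries (0.083, and 0.19 without the 2 cells).

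The amplitude of Nfil3 (0.717 per 10000) was 0.0735 with cells pooled per zeitgeber time and 0.288 with all libraries, and that of Bhlhe40 (2.85) was 0.570 with all libraries and 2.03 to 4.90 with 1 library left out. With a pseudocount of 0.01 the median differences were 8.88 for Trac, 6.77 for Trbc2, 6.50 for Gata3 and 6.19 for Cxcr6, and with 1 they were 2.69, 2.98, 2.37 and 2.28, and 1.16 for Il18r1. With all 3 Cd3 genes, in 5 libraries, Trac differed by 5.34 and Trdc by -0.27. With 94 cells, 759727 UMIs and no library of ZT6 or ZT18 in the rhythm fit, clock genes other than the 6 named above had too few UMIs to be tested.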
